A study of Rattus norvegicus with 9 samples.

Results

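Genes of heat shock proteins and chaperones were described across rat right ventricles with and without fibrosis. They were taken by their symbols: the Hspa, Hspb, Hspd, Hspe, Hsph and Hsp90 genes, the Dnaja, Dnajb and Dnajc genes, the Cct subunits and the Bag genes. Of the 14506 genes that the array measured with a feature of their own, 76 had such a symbol. They were 10 Hsp70 genes (Hspa), 1 Hsp110 gene (Hsph1), 3 Hsp90 genes, 7 small heat shock protein genes (Hspb), Hspd1 and Hspe1, 8 Cct genes, 4 Dnaja, 12 Dnajb and 23 Dnajc genes, and 6 Bag genes. A gene with several features was represented by the brightest, which concerned 3 of the 76, and Hspa8 had 8 features. The feature shared by Hspa1a and Hspa1b, the classical stress-induced Hsp70 genes, and the testis form Hspa1l carried several symbols and was therefore no member. Its values are given beside those of the Hsp70 family.

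Right ventricles came from male Sprague-Dawley rats in 3 groups of 3 arrays each. In PAB F+ hearts, the pulmonary artery had been banded (PAB), which loads the right ventricle with pressure, and the fibrotic area was above 6.5% of the heart tissue. PAB F- hearts were banded in the same way and had a fibrotic area below 6.5%. Sham hearts came from rats operated on without banding. The fibrosis grouping was made 4 weeks after the operation. The comparison of F+ with F- hearts addresses fibrosis among banded hearts, and that of either with Sham hearts addresses banding. Whether each array stands for an animal of its own is not stated, so p-values measure only the spread between arrays, which may be technical.

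Chaperones bind unfolded or partly folded proteins and keep them from aggregating. Hsp70 proteins cycle between ATP- and ADP-bound states on exposed hydrophobic stretches, J-domain proteins (Dnaja, Dnajb, Dnajc) deliver substrates to them and speed ATP hydrolysis, and Bag proteins and Hsp110 release the nucleotide. Hsp90 matures kinases and steroid receptors, the Cct ring folds actin and tubulin, Hspd1 with its lid Hspe1 folds proteins in the mitochondrial matrix, and small heat shock proteins, abundant in heart and skeletal muscle, hold unfolding proteins without using ATP. In the heart this network maintains the sarcomere. Many of its cytosolic genes are switched on by heat shock factors, and those of the endoplasmic reticulum by the unfolded protein response.

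The arrays were alike in overall signal, with medians from 33.4 to 33.9 over 29215 features. The scale of the deposited values is not stated. They ran from 1.0 to 190.4, and their square roots from 1.0 to 13.8, the usual range of log2 intensities, so the values could be squares of log2 intensities and a fold change here need not be a fold change of RNA. The median standard deviation of log2 values within groups was 0.052 for the members, 0.054 for genes with 1 feature each and 0.063 for all features. The members were also brighter, with a median value of 62.8 against 33.7 for all features. Genes of ventricular cardiomyocytes, such as Myh6 and Tnnt2, summed to between 1551 and 1588 over 10 markers on every array. F- array 1 and Sham array 2 stood apart from the other arrays of their groups. On F- array 1, 8 macrophage markers summed to 559, against 446 and 453 on the other F- arrays, with 560 to 594 on F+ arrays and 461 to 487 on Sham arrays. The 7 fibroblast markers summed to 620 there, against 580 and 559 on the other F- arrays, with 577 to 628 on F+ arrays and 552 to 595 on Sham arrays. Of these markers, Postn had its highest value of all arrays on F- array 1, at 86.7, while Dcn, Pdgfra and Tcf21 had their lowest there. On Sham array 2, 4 atrial markers summed to 487, against 214 and 219 on the other Sham arrays, with 265 to 295 on F+ arrays and 202 to 278 on F- arrays. Among these, Nppa measured 134.3 to 149.5 on F+ arrays, 155.6, 37.0 and 43.6 on F- arrays, and 57.7, 135.8 and 59.7 on Sham arrays. Of the 4 markers, Nppa was the 1 that was higher in F+ than in Sham hearts, and 3 were lower. The summed red cell markers were 151 to 258 on F+ arrays, 100 to 114 on F- arrays and 116 to 128 on Sham arrays. Each tissue is a mixture, so fewer cells of a type and less RNA per cell cannot be told apart.

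No chaperone gene passed limma with Benjamini-Hochberg adjustment over all 29215 features at 0.05, in any comparison. For F+ against F- hearts, 0 of the 76 members passed and 0.00342% of all features did, which was 1 feature. For F- against Sham, F+ against Sham and banded (F+ and F- together) against Sham hearts, 0 members and 0% of features passed. The smallest adjusted p of a member by limma was 0.496 for F+ against F-, 0.743 for F- against Sham, 0.633 for F+ against Sham and 0.726 for banded against Sham. On the log2 scale of the deposited values, 71 of 76 members in F+ against F- had a fold change below 0.1 in size. The median half-width of the 95% interval of a member was 0.098. If the values are squares of log2 intensities, the fold changes of RNA are larger, so this cut does not show that they were small.

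At an unadjusted limma p under 0.05, 1 member was higher and 1 lower in F+ than in F- hearts, where 3.65% of all features were higher and 3.76% lower. In F- against Sham hearts 5 members were higher and 1 lower, with 3.07% and 2.96% of features. In F+ against Sham hearts the members were again 5 higher and 1 lower, with 3.5% and 3.9% of features. Banded against Sham hearts gave 6 higher and 1 lower, with 3.03% and 3.26% of features. The 5 members are 6.58% of the 76, and the 6 members 7.89%. Over the 14506 genes with 1 feature each, 2.81% were higher in F- against Sham, 4.41% in F+ against Sham and 3.07% in banded against Sham hearts.

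The members leaned upward against Sham, by little on this log2 scale. By array, their median log2 difference from the Sham mean was 0.019, 0.027 and 0.013 on F+ arrays. It was 0.051, 0.014 and 0.028 on F- arrays, and 0.00029, -0.0051 and 0.014 on Sham arrays. Sham array 3 therefore lay among the banded arrays. In F- against Sham hearts, 58 of 76 members had a log2 fold change above 0, against 48.1% of all features, and their median was 0.036, against -0.0025 over all features. In F+ against Sham hearts, 50 of 76 were above 0, against 47.4% of features, with a median of 0.014. In banded against Sham hearts, 55 of 76 were above 0, against 47.3% of features, with a median of 0.029. In F+ against F- hearts, 31 of 76 were above 0, against 48.3% of features, with a median of -0.013. The comparisons share arrays: a high value on an F- array moves F- against Sham up and F+ against F- down together. F- array 1 was the highest F- array for 43 of the 76 members (56.6%), against 31.9% of all features. Without it, 37 members were higher and 39 lower in F+ than in F- hearts, with a median of -0.0036, and 57 were higher in F- than in Sham hearts, with a median of 0.021. Without F- array 2 the F+ against F- median was -0.023, and without Sham array 3 the F+ against Sham median was 0.024. F- array 1 also had the high macrophage markers, and their part in the result was not tested.

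**Figure D1:**
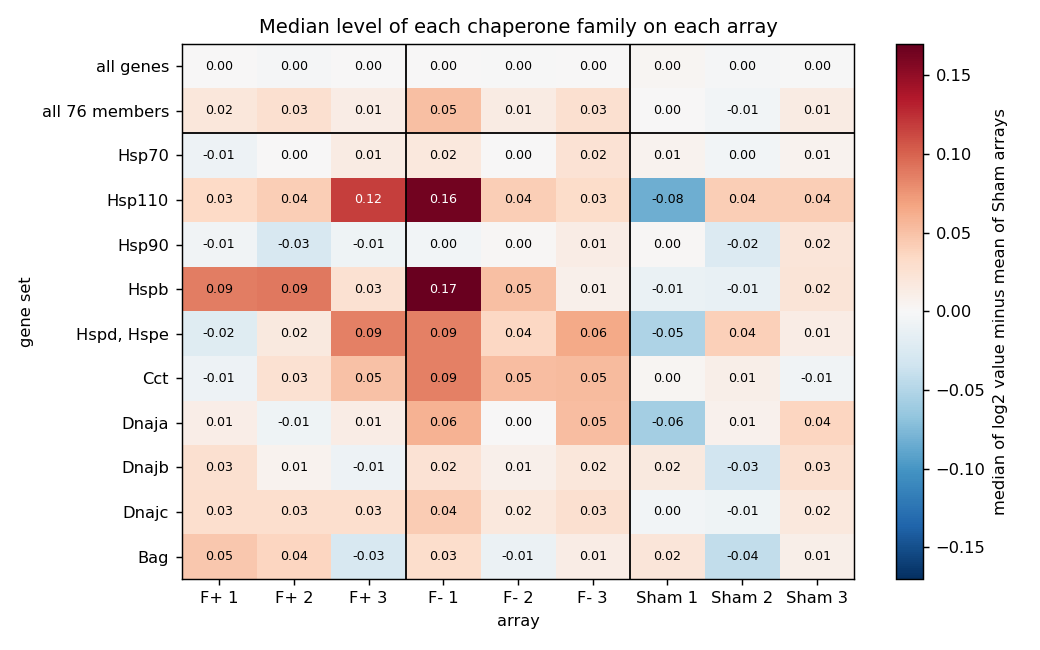
Median over each chaperone family of the log2 value on an array (columns) minus the mean log2 value of the 3 Sham arrays, with all genes and all 76 members in the top rows; the colour bar gives the log2 scale. The small heat shock protein row (Hspb) is highest on F- array 1, and the Cct row is above 0 on all 3 F- arrays.

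**Figure D2:**
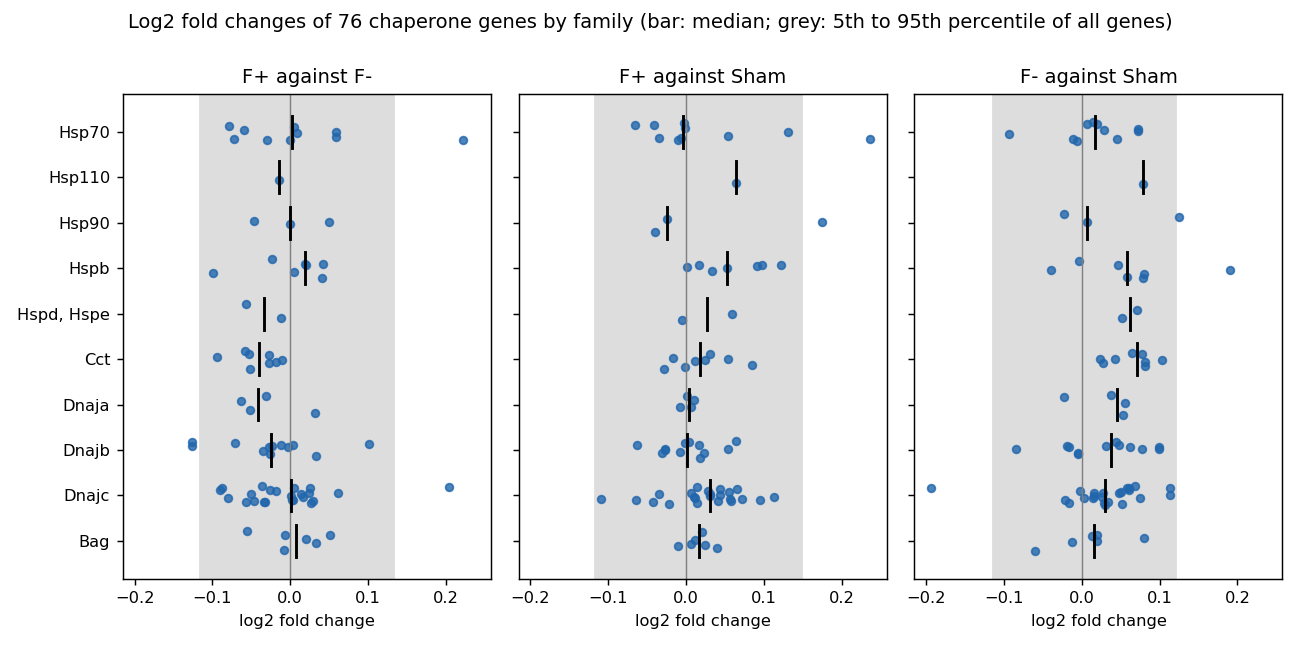
Log2 fold changes (horizontal axis) of the 76 members by family (vertical axis) in 3 comparisons; each point is a gene, the black bar the family median and the grey band the 5th to 95th percentile of all 14506 genes. In F+ against F-, 72 of the 76 points lie within the grey band, and all 8 Cct points lie left of 0.

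Sequences upstream of the members were searched for known elements. RefSeq (build GRCr8) gave a promoter window of 300 bases, 250 before and 50 after the start, for 63 of the 76 members. The heat shock element, the site of heat shock factors, was searched as 3 units (GAANNTTCNNGAA or its reverse complement TTCNNGAANNTTC, so that both strands are covered). It stood in 6 of 63 members (9.52%), namely Cct4, Dnaja1, Hspa8, Hspd1, Hspe1 and Hsph1, and in 202 of 27457 windows of the whole table (0.736%). A shorter form of 2 units (GAANNTTC or TTCNNGAA, each its own reverse complement), which every 3-unit match contains, stood in 20 members (31.7%) and in 15.4% of all windows. The endoplasmic reticulum stress element (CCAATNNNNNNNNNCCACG or its reverse complement) stood in Hspa5, Hsp90b1 and Dnajc3, 4.76% of members, against 0.0765% of all windows. Among the 9 members with a 3-unit heat shock element or a stress element, 2 were higher and 7 lower in F+ than in F- hearts, 4 of them with every F+ array under every F- array (5.28% of all features). These 4 are Cct4, Hspd1, Hspa5 and Hsp90b1, picked for printing after their values were seen, and their windows are given below with their family, with the elements in capitals. Of the 9, 1 had an unadjusted limma p under 0.05 in F+ against F- hearts (7.41% of all features). The 9 pool both kinds of element, and Hspd1 and Hspe1 are both counted though they share theirs. A match of letters is a description and not evidence of binding, and a link between elements and differences was not tested.

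The Cct genes encode subunits of the cytosolic chaperonin, a double ring that folds actin and tubulin. All 8 had a negative log2 fold change in F+ against F- hearts, with a median of -0.040, and all 8 a positive one in F- against Sham hearts, with a median of 0.072. Against Sham, F+ hearts had 5 higher and 3 lower. An unadjusted limma p under 0.05 was reached by Cct4 in F+ against F- hearts, by Cct8 in F+ against Sham hearts, and by Cct4, Cct7 and Cct8 in F- against Sham hearts. F- array 1 was the highest F- array for 7 of the 8 genes. Without it, 2 were higher and 6 lower in F+ than in F- hearts, with a median of -0.012, while all 8 stayed higher in F- than in Sham hearts, with a median of 0.045. Without F+ array 1, F+ against F- had 1 higher and 7 lower, with a median of -0.018.

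Cct4 had the smallest p of the members in F+ against F- hearts. It measured 67.4, 68.3 and 67.4 on F+ arrays, against 72.5, 72.2 and 72.1 on F- arrays and 68.9, 68.5 and 68.0 on Sham arrays. The 3 F- arrays lay close together and above all others, while F+ and Sham arrays overlapped. The log2 fold change was -0.094 ± 0.021 (SE, n = 3 each) for F+ against F-, with a limma p of 0.0021 and an adjusted p of 0.496. For F- against Sham it was 0.078 ± 0.021, with a limma p of 0.0059 and an adjusted p of 0.743. The exact two-sided permutation test gave p = 0.1 for both, the smallest that 3 arrays against 3 allow. Without F- array 1 the log2 fold change of F+ against F- was -0.092, so this gene did not rest on that array. Its window holds a 3-unit heat shock element (capitals) that begins at base 26 of the transcribed part:
Cct4, GRCr8 chr14:101192807-101193106, plus strand: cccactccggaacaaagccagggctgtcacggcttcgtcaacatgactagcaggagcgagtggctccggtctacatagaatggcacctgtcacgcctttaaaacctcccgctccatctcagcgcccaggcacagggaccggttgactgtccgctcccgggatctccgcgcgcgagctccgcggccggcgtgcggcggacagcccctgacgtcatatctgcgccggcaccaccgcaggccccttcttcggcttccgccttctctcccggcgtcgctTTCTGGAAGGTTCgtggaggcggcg

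Cct8 and Cct5 were the subunits whose 6 banded arrays all lay above the 3 Sham arrays. Cct8 measured 69.1, 71.5 and 70.4 on F+ arrays, 73.5, 71.2 and 69.0 on F- arrays, and 64.8, 67.7 and 66.5 on Sham arrays. Banded against Sham, its log2 fold change was 0.094 ± 0.028 (SE), with a limma adjusted p of 0.726 and p = 0.0238 by the exact two-sided permutation test, the smallest that 6 against 3 allow. Any gene with all banded arrays above all Sham arrays has this p. The test was run only on members with an unadjusted limma p under 0.05, and its p was not adjusted over members. Cct5 ran from 96.5 to 98.4 on F+ arrays, 96.8 to 99.8 on F- arrays and 93.9 to 96.1 on Sham arrays, a difference of 0.037 on the log2 scale for banded against Sham. Cct7 measured 59.7, 62.9 and 64.4 on F+ arrays, 64.7, 62.0 and 63.8 on F- arrays, and 59.3, 59.8 and 60.9 on Sham arrays, so F- and Sham arrays did not overlap and F+ and Sham arrays did. Cct3 stood at 74.2 on F- array 1 and between 64.8 and 68.1 on every other array. Cct2 and Cct6a overlapped between all groups. Cct6b, the subunit known from testis, was dim, with 9.7 to 10.8 on all arrays. Tcp1, a subunit without a Cct symbol, is no member and was looked up after the values were seen. It measured 69.5, 72.5 and 73.8 on F+ arrays, 78.0, 71.1 and 74.4 on F- arrays, and 72.9, 73.9 and 73.3 on Sham arrays, with overlap between all groups.

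**Figure D3:**
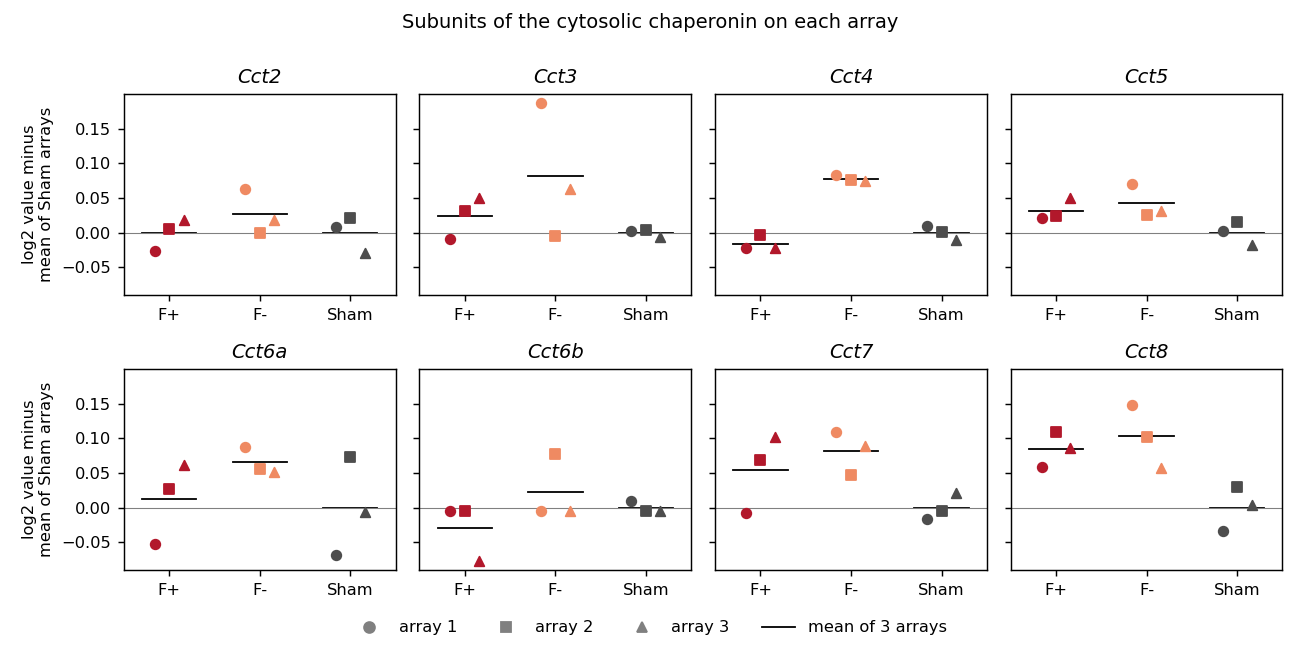
Log2 value minus the mean of the 3 Sham arrays (vertical axis) for the 8 Cct genes, by group (horizontal axis); symbols mark the array number and bars the mean of 3 arrays. The 3 F- arrays of Cct4 lie together above F+ and Sham, while Cct3 and Cct8 have their highest value on F- array 1.

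Among the Hsp70 genes, Hspa2 had the largest difference between F+ and F- hearts of all 76 members. Hspa2, known for its role in sperm formation and expressed at low level elsewhere, measured 26.7, 27.1 and 26.6 on F+ arrays, against 25.5, 19.5 and 24.4 on F- arrays and 23.7, 21.5 and 23.1 on Sham arrays. The 3 F+ arrays were close together and above the other 6, and F- array 2 was the lowest of all. The log2 fold change was 0.22 ± 0.094 (SE) for F+ against F-, with a limma adjusted p of 0.672, and 0.24 ± 0.094 for F+ against Sham, with a limma adjusted p of 0.655. The exact two-sided permutation test gave p = 0.1 for both. If the values are squares of log2 intensities, these are 1.30-fold and 1.33-fold. Leaving out single arrays moved the log2 fold change of F+ against F- between 0.10 and 0.30, and the lowest value was found without F- array 2.

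Hspa12b, an Hsp70 relative known from endothelial cells, had its lowest values in F- hearts. It measured 57.7, 55.8 and 57.0 on F+ arrays, 55.3, 54.1 and 54.2 on F- arrays, and 59.3, 56.7 and 58.6 on Sham arrays. F- arrays lay under all others, and F+ and Sham arrays overlapped. The log2 fold change of F- against Sham was -0.094 ± 0.027 (SE), with a limma p of 0.0092 and an adjusted p of 0.743, and that of F+ against F- was 0.060 ± 0.027. Over 5 endothelial markers, sums were 410 to 418 on F+ arrays, 399 to 412 on F- arrays and 406 to 422 on Sham arrays; their part in the difference was not tested.

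The constitutive Hsp70 of the cytosol, Hspa8, was flat. It ranged from 162.7 to 165.0 on F+ arrays, 161.9 to 165.2 on F- arrays and 163.2 to 164.7 on Sham arrays. The 95% interval of its log2 fold change for F+ against F- ran from -0.045 to 0.054. The shared feature of Hspa1a, Hspa1b and Hspa1l measured 66.4, 63.2 and 60.8 on F+ arrays, 63.4, 61.2 and 63.0 on F- arrays, and 58.9, 59.5 and 65.7 on Sham arrays, so the groups overlapped. Hspa4, an Hsp110-type partner of Hsp70, was 91.4 to 95.6 on F+ arrays, 90.1 to 98.2 on F- arrays and 89.6 to 90.2 on Sham arrays, and only F+ and Sham arrays did not overlap. Hspa4l, its relative, spread widely, from 53.8 to 57.2 on F+ arrays, 48.0 to 60.2 on F- arrays and 44.1 to 54.4 on Sham arrays. Hspa12a and Hspa14 overlapped between groups. Hsph1, the Hsp110 nucleotide exchange factor, measured 53.8, 54.1 and 57.0 on F+ arrays, 58.9, 54.1 and 53.7 on F- arrays, and 49.6, 54.1 and 54.1 on Sham arrays. Its differences were set by single arrays, and no comparison had an unadjusted limma p under 0.05.

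The cytosolic Hsp90 genes behaved differently from each other. Hsp90aa1, the stress-inducible form, measured 94.4, 97.0 and 102.0 on F+ arrays, 106.1, 90.9 and 87.3 on F- arrays, and 86.6, 87.1 and 86.0 on Sham arrays. All 6 banded arrays lay above the 3 Sham arrays, which were close together, and F- array 1 was the highest. For F+ against Sham the log2 fold change was 0.18 ± 0.069 (SE), with a limma adjusted p of 0.655, which is 1.5-fold if the values are squares of log2 intensities. For banded against Sham it was 0.15 ± 0.060, with a limma adjusted p of 0.726 and p = 0.0238 by the exact two-sided permutation test. F+ against F- gave 0.050 ± 0.069, and 0.13 without F- array 1, while F- against Sham gave 0.13, and 0.041 without that array. Hsp90ab1, the constitutive form, was 131.9 to 135.4 on F+ arrays, 132.1 to 135.5 on F- arrays and 133.8 to 137.9 on Sham arrays, with overlap between all groups.

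The small heat shock protein genes had mostly higher mean values in banded than in Sham hearts, but not on every array. Their sums were 664.1, 665.5 and 647.4 on F+ arrays, 689.1, 639.1 and 639.0 on F- arrays, and 623.5, 624.8 and 644.0 on Sham arrays. F- arrays 2 and 3 thus lay under Sham array 3, the highest Sham array for 6 of the 7 genes. All 7 had a log2 fold change above 0 in F+ against Sham hearts, with a median of 0.052 and Hspb9 at 0.00085, and 5 of 7 were higher in F- than in Sham hearts, with a median of 0.058. F- array 1 was the highest F- array for 5 of the 7, and F- array 3 for none. Without F- array 1, F- against Sham still had 5 higher and 2 lower, with a median of 0.028, and without Sham array 2 also 5 and 2, with a median of 0.057. With both left out it had 3 higher and 4 lower, with a median of -0.0028. F+ against Sham had 5 to 7 higher with single arrays left out, the 5 without F+ array 2, and its median was 0.091 without F+ array 3.

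Hspb3, the muscle partner of Hspb2, measured 50.2 on each of the 3 F+ arrays, 56.9, 54.5 and 50.2 on F- arrays, and 44.7, 48.1 and 48.7 on Sham arrays. Every banded array lay above every Sham array. Equal values on several arrays were common in these files: 20.8% of all features and 9 of the 76 members had the same value on at least 4 arrays. The log2 fold change of F- against Sham was 0.19 ± 0.051 (SE), with a limma p of 0.0061 and an adjusted p of 0.743, and that of banded against Sham was 0.14 ± 0.044, with p = 0.0238 by the exact two-sided permutation test.

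Hspb7, the cardiovascular small heat shock protein of the sarcomere, measured 126.8, 129.8 and 124.2 on F+ arrays, 132.1, 120.8 and 117.3 on F- arrays, and 117.5, 114.8 and 117.6 on Sham arrays. F+ arrays lay above all Sham arrays, and F- array 3 lay among the Sham values. F+ against Sham gave a log2 fold change of 0.12 ± 0.045 (SE), with a limma adjusted p of 0.633. F+ against F- gave 0.042 ± 0.045, and 0.092 without F- array 1. Hspb1, the actin-associated member, had the same shape, at 120.1, 118.0 and 118.2 on F+ arrays, 129.6, 109.5 and 113.4 on F- arrays, and 107.5, 109.2 and 116.3 on Sham arrays. Hspb8, which works with Bag3 in clearing damaged sarcomere proteins, was 93.9 to 96.9 on F+ arrays, 90.3 to 103.6 on F- arrays and 91.4 to 92.8 on Sham arrays. For these 3 genes the F+ arrays lay above the Sham arrays without overlap, and the F- group overlapped both. Hspb6 was 170.5 to 171.0 on F+ arrays, 164.4 to 172.4 on F- arrays and 167.5 to 171.5 on Sham arrays. Hspb2 and Hspb9 overlapped between groups. Cryab, the most studied small heat shock protein of the heart, has no Hsp symbol and is no member; looked up after the values were seen, it was 174.4 to 177.2 on F+ arrays, 176.1 to 177.3 on F- arrays and 173.1 to 178.0 on Sham arrays.

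**Figure D4:**
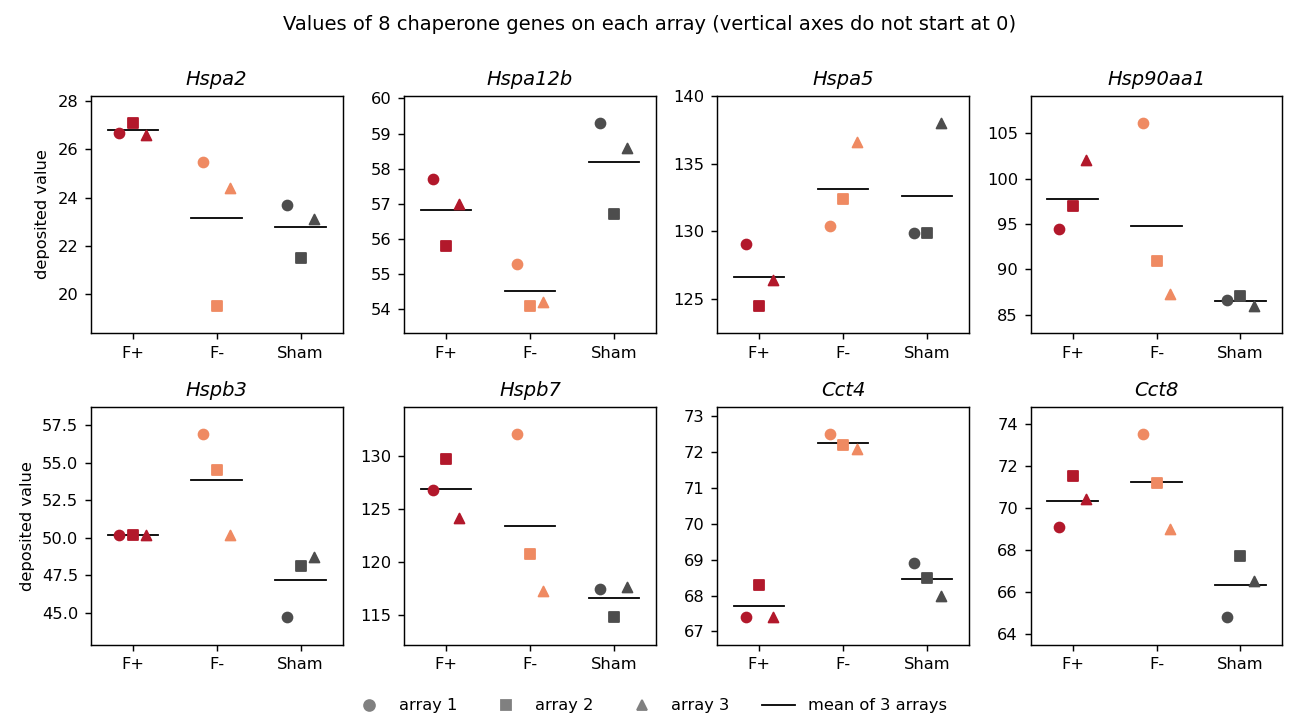
Deposited values (vertical axes, which do not start at 0) of 8 members on each array, by group (horizontal axis); symbols mark the array number and bars the mean of 3 arrays. Hspa2 is highest on the 3 F+ arrays, Cct4 on the 3 F- arrays, and all 6 banded arrays of Hsp90aa1, Hspb3 and Cct8 lie above the 3 Sham arrays.

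The mitochondrial members leaned the same way as the Cct genes. Of 8 measured (Hspa9, Hspd1, Hspe1, Dnaja3, Dnajc11, Dnajc15, Dnajc28 and Dnajc30), 8 were higher in F- than in Sham hearts, with a median log2 fold change of 0.059, and 1 was higher and 7 lower in F+ than in F- hearts, with a median of -0.039. None had an unadjusted limma p under 0.05 in any comparison. Without F- array 1, all 8 were still higher in F- than in Sham hearts, with a median of 0.045, and F+ against F- had 2 higher and 6 lower. Leaving out Sham array 1 gave an F- against Sham median of 0.029, and leaving out F- array 3 one of 0.037, with all 8 still higher. The F+ against F- median was -0.026 without F- array 3. Hspd1, the chaperonin ring protein of the matrix, measured 98.6, 99.2 and 100.7 on F+ arrays, 101.9, 103.1 and 105.5 on F- arrays, and 96.9, 102.0 and 100.6 on Sham arrays. F+ arrays lay under all F- arrays, and both overlapped the Sham range. F+ against F- gave a log2 fold change of -0.057 ± 0.028 (SE), with a limma adjusted p of 0.683. Its lid Hspe1 overlapped between groups, at 84.8, 88.8 and 96.2 on F+ arrays, 95.1, 87.6 and 89.1 on F- arrays, and 82.5, 89.2 and 87.0 on Sham arrays. Hspa9, the Hsp70 of the matrix, was 109.7 to 113.3 on F+ arrays, 113.1 to 115.2 on F- arrays and 109.8 to 113.1 on Sham arrays.

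Hspd1 and Hspe1 lie head to head: their starts are 290 bases apart on opposite strands, and their windows share 211 bases. Both windows hold the same heat shock elements, overlapping 3-unit matches shown in capitals in the Hspd1 window:
Hspd1, GRCr8 chr9:64083988-64084287, minus strand: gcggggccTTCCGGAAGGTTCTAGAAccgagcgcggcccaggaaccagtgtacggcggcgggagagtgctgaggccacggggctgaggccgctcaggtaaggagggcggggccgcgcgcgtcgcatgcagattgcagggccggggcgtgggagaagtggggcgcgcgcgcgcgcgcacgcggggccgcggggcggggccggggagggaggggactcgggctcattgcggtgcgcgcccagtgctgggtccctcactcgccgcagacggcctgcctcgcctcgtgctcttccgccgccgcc

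The chaperones of the endoplasmic reticulum had mostly lower mean values in F+ than in F- hearts. By array, the median log2 difference of the members below from the Sham mean was -0.038, -0.027 and 0.028 on F+ arrays. On F- arrays it was 0.028, 0.022 and 0.043, so F+ array 3 lay among them. Of 7 members measured (Hspa5, Hsp90b1, Hspa13, Dnajb9, Dnajb11, Dnajc3 and Dnajc10), 1 was higher and 6 lower in F+ than in F- hearts, with a median log2 fold change of -0.047, and 7 were higher in F- than in Sham hearts, with a median of 0.048. None had an unadjusted limma p under 0.05. Without F- array 1, F+ against F- had 2 higher and 5 lower, with a median of -0.053. The F- against Sham median was 0.021 without F- array 1, 0.020 without F- array 3, 0.030 without Sham array 1 and 0.023 without Sham array 2, with 5 higher and 2 lower without F- array 3 or Sham array 2. Hspa5 (BiP), the Hsp70 of this compartment, measured 129.1, 124.5 and 126.4 on F+ arrays, 130.4, 132.4 and 136.6 on F- arrays, and 129.9, 129.9 and 138.0 on Sham arrays. The F+ arrays lay under all 6 others, and F- and Sham arrays overlapped. F+ against F- gave -0.072 ± 0.034 (SE), with a limma adjusted p of 0.679, and F+ against Sham -0.066 ± 0.034, with 0.700. Hsp90b1 (Grp94), its Hsp90 counterpart, measured 104.9, 109.4 and 110.9 on F+ arrays, 111.1, 111.6 and 113.2 on F- arrays, and 112.2, 108.9 and 113.3 on Sham arrays. F+ and F- arrays did not overlap, but the highest F+ and the lowest F- array nearly met. Dnajb9, a J-domain partner of BiP, was 58.0, 55.7 and 60.3 on F+ arrays, 60.3, 62.2 and 67.5 on F- arrays, and 62.7, 57.2 and 62.0 on Sham arrays, with a log2 fold change of -0.13 ± 0.055 for F+ against F- and a limma adjusted p of 0.674. The windows of Hspa5 and Hsp90b1 carry the stress element (capitals), once in Hspa5 and in both orientations in Hsp90b1:
Hspa5, GRCr8 chr3:38452766-38453065, plus strand: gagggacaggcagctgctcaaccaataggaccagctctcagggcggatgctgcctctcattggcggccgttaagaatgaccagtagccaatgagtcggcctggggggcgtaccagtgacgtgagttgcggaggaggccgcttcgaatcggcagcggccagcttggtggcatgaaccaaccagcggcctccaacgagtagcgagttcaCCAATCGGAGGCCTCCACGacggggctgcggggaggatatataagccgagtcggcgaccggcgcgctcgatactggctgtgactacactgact
Hsp90b1, GRCr8 chr7:23012244-23012543, minus strand: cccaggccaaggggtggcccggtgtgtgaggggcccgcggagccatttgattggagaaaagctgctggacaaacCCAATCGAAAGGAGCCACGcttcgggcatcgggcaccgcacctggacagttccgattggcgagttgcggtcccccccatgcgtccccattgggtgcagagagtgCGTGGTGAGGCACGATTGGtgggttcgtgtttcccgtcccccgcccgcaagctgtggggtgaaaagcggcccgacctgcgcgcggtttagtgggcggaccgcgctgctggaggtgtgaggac

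Other endoplasmic reticulum genes, not members, were read from a list of 15 folding factors and stress regulators. In F+ against F- hearts, 1 was higher and 14 lower, with a median log2 fold change of -0.023, and 3 of the lower had an unadjusted limma p under 0.05 (3.76% of all features). The count was 6 higher and 9 lower without F+ array 1, and 5 and 10 without F- array 1, with a median of -0.011. Without F+ array 2 or 3 the median was -0.058 or -0.040. Hyou1, the nucleotide exchange factor of BiP, measured 61.0, 56.1 and 58.6 on F+ arrays and 61.7, 65.4 and 67.4 on F- arrays, with 61.8, 59.4 and 67.3 on Sham arrays. Its log2 fold change for F+ against F- was -0.15 ± 0.057 (SE), with a limma adjusted p of 0.669. The others were Manf, at -0.11, and Pdia6, a disulfide isomerase, at -0.094, both with a limma adjusted p of 0.671. In F- against Sham hearts 13 were higher and 2 lower. Ddit3 (CHOP), a transcription factor of the same stress response, was higher than on Sham arrays on every banded array, at 49.4, 55.5 and 48.3 on F+ arrays and 53.6, 49.2 and 50.5 on F- arrays, against 45.5, 46.0 and 46.5 on Sham arrays. Banded against Sham it gave 0.15 ± 0.048, with a limma adjusted p of 0.726.

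The J-domain genes showed no common direction between F+ and F- hearts. Dnaja genes had 1 higher and 3 lower, Dnajb genes 3 higher and 9 lower, and Dnajc genes 12 higher and 11 lower. Against Sham, Dnajc genes were higher in 18 of 23 in F+ hearts, with a median log2 fold change of 0.031, and in 19 of 23 in F- hearts, with a median of 0.030, or 18 of 23 and 0.018 without F- array 1. Dnajc16, a J-domain protein of membranes, had all banded arrays above Sham, at 62.1, 66.5 and 62.2 on F+ arrays and 67.9, 62.3 and 63.0 on F- arrays, against 60.0, 59.9 and 58.6 on Sham arrays. Banded against Sham gave 0.10 ± 0.037 (SE), with a limma adjusted p of 0.726 and p = 0.0238 by the exact two-sided permutation test. Dnajc27, a Rab-like protein with a J domain, was 51.8, 53.0 and 52.9 on F+ arrays, 53.3, 47.9 and 50 on F- arrays, and 48.5, 48.3 and 49.0 on Sham arrays, with 0.11 ± 0.039 for F+ against Sham and a limma adjusted p of 0.633. F+ and Sham arrays did not overlap, and F- arrays spanned both.

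Dnajc6 (auxilin), which uncoats clathrin vesicles with Hsp70, was the J-domain gene with an unadjusted limma p under 0.05 in the lower direction. It measured 24.3, 24.0 and 24.0 on F+ arrays, 25.0, 27.2 and 24.7 on F- arrays, and 25.0, 26.2 and 26.8 on Sham arrays, so F+ arrays lay under all 6 others. F+ against Sham gave -0.11 ± 0.043 (SE), with a limma adjusted p of 0.655. Dnajc5b, a relative of the synaptic cysteine string protein, had a log2 fold change of -0.19 for F- against Sham, which came mainly from F- array 3, at 13.0, with 17.9 and 17.7 on the other F- arrays, 18.2 to 18.8 on F+ arrays and 18.2 to 18.6 on Sham arrays. Among the stress-linked Dnaj genes, Dnajb1, the main cytosolic Hsp70 partner, was 42.5 to 42.8 on F+ arrays, 41.9 to 43.9 on F- arrays and 42.2 to 43.8 on Sham arrays, and Dnaja1 overlapped between groups as well. Dnajb6, which holds back aggregation of polyglutamine proteins, was 74.0, 69.0 and 66.4 on F+ arrays, 61.0, 65.3 and 69.0 on F- arrays, and 67.7 to 70.1 on Sham arrays, its lowest value being F- array 1.

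The Bag genes, nucleotide exchange factors of Hsp70, stayed close to Sham. None of the 6 had an unadjusted limma p under 0.05 in any comparison, and F+ against F- had 3 higher and 3 lower. Bag3, the partner of Hspb8 at the Z disc, was 95 to 102 on F+ arrays, 97.6 to 102.6 on F- arrays and 95.4 to 101.4 on Sham arrays, and the log2 fold change of F+ against F- was -0.0062 ± 0.039 (SE). Bag2, an inhibitor of the ubiquitin ligase that works with Hsp70, was 65.9, 67.5 and 59.9 on F+ arrays, 66.3, 67.0 and 67.4 on F- arrays, and 61.2, 65.3 and 63.4 on Sham arrays, and only F- and Sham arrays did not overlap.

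The list of stress-inducible genes did not move as a set. Its Hspa1a and Hspa1b had no feature of their own and were not counted, and it includes Hspa8, which is mostly constitutive. Of 9 measured (Hspa8, Hsph1, Hsp90aa1, Hspb1, Dnajb1, Dnaja1, Bag3, Hspd1 and Hspe1), 4 were higher and 5 lower in F+ than in F- hearts, with a median log2 fold change of -0.0031. In both F- against Sham and F+ against Sham hearts 6 were higher and 3 lower, with medians of 0.052 and 0.0098. Without F- array 1, F+ against F- turned to 7 higher and 2 lower, with a median of 0.024, and the F- against Sham median was 0.0089. Without F- array 2, F+ against F- had 2 higher and 7 lower, with a median of -0.022. Hsp90aa1 was the only one of the 9 with an unadjusted limma p under 0.05, in F+ against Sham and in banded against Sham hearts.

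Of 22 other co-chaperones and heat shock factors measured, 5 were higher and 17 lower in F+ than in F- hearts, with a median log2 fold change of -0.032, or -0.019 without F- array 1. Unc45b, the Hsp90 co-chaperone that folds myosin in striated muscle, measured 73.2, 70.8 and 71.4 on F+ arrays, 76.7, 77.5 and 79.3 on F- arrays, and 74.0, 75.6 and 77.8 on Sham arrays. Its F+ arrays lay under all 6 others, and the log2 fold change of F+ against F- was -0.12 ± 0.029 (SE), with a limma p of 0.0040 and an adjusted p of 0.567. Fkbp4, an immunophilin of Hsp90 complexes, was 66.6, 67.2 and 70.3 on F+ arrays, 71.8, 76.7 and 80.9 on F- arrays, and 67.1, 77.0 and 80.0 on Sham arrays, with -0.17 ± 0.071 for F+ against F- and a limma adjusted p of 0.672. Of 8 other mitochondrial chaperones and proteases, 2 were higher and 6 lower in F+ than in F- hearts, and 4 were higher and 4 lower in F- than in Sham hearts, with a median of 0.00029 that ran between -0.0048 and 0.017 with single arrays left out. The mitochondrial members had 8 of 8 higher in that comparison, and the difference between the lists was not tested. Spg7, a protease of the inner membrane, gave -0.095 for F+ against F-. Clpx, the unfoldase of the matrix protease, gave -0.12 for F+ against Sham, and neither passed the adjusted limma threshold. In F+ against F- hearts, 1 of 10 ventricular cardiomyocyte markers was higher and 9 lower, with a median of -0.015. In that comparison 8 of 8 macrophage markers were higher, with a median of 0.23. The part of these markers in the chaperone values was not tested.

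Counting non-overlap alone, 3 members had every F+ array above every F- array (4.46% of all features did) and 8 had every F+ array below (5.28%). Named here after their values were seen, the 8 were Cct4, Dnaja2, Dnajc12, Dnajc22, Dnajc6, Hsp90b1, Hspa5 and Hspd1, and the 3 were Dnajc5b, Hspa12b and Hspa2. For F+ against Sham, 13 members were above (5.69%) and 4 below (6.56%), and for F- against Sham, 8 above (5.15%) and 2 below (4.64%). All 6 banded arrays lay above all 3 Sham arrays for 5 members (1.09% of features), Cct5, Cct8, Dnajc16, Hsp90aa1 and Hspb3, and below for 0 (1.53%). The 13 in F+ against Sham are 17.1% of the members, and the 5 in banded against Sham 6.58%. Over the 14506 genes with 1 feature each, as the members have, these shares were 7.65% and 1.34%. F+ arrays lay below F- arrays for 6.24% of these genes. No member had F+ and F- arrays wholly on opposite sides of the Sham arrays.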

How the data were processed

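Right ventricular RNA of 9 rat samples was hybridized to Affymetrix rat gene arrays, 3 per group, and the authors deposited a table of signal values per feature; their scaling and normalization are not stated. Per the labels, RNA was taken with Sepasol and labelled as cRNA; the methods name TRIzol and sense-strand cDNA. Replicate hybridizations were averaged per the methods. Of 29215 features, 15310 carried 1 symbol, 323 several, and 13582 are not listed in the annotation used; 15279 of the 15310 matched RefSeq GRCr8. Log2 values were tested with limma 3.58.1 in R 4.3.3 (lmFit, eBayes, a mean per group, Benjamini-Hochberg over all features, threshold 0.05), with no filter. Members with an unadjusted limma p under 0.05 had an exact permutation test (scipy 1.17.1), not adjusted over members. Array values have no counting depth; the 3 arrays per group limit precision. The fit was checked on simulated data. Alternatives covered normalization, filters, scale, variance model, the replicate number and left-out arrays. Genes were named by family, by size of change within the Dnaj genes, and by smallest p within the other lists. Members and lists were chosen with earlier results of these data known.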

Additional observations from a re-analysis of the deposited data

How the results depend on the processing

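No member passed limma's adjusted threshold under any setting tried. The 21 gene values tested in detail kept their direction in all alternatives, and the lowest adjusted p was 0.135. These 21 were chosen for an unadjusted limma p under 0.05 in the same arrays that the alternatives reuse. A kept direction is therefore a weak check. Counts moved more. For F+ against F- hearts, the features passing limma were 1 as reported, 3 without the dimmest features (68 members left), 3 with 1-symbol features only, 3 with a variance trend and robust priors, 3 on untransformed values, 3 without Sham array 2 and F- array 1 together, and 0 with only the groups compared; leaving out single arrays gave 0 to 3 (3 without F- array 1, 0 without any other). For F+ against Sham hearts they were 0 as reported, and 1 with only the groups compared and 1 without Sham array 2 and F- array 1. For banded against Sham, the fit on the groups compared is the reported fit.

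Members with an unadjusted p under 0.05 in F+ against F- hearts were 2 as reported, 1 after quantile normalization, 6 with the variance trend, 5 on square roots, 7 on untransformed values and 7 without Sham array 2 and F- array 1, and 1 to 8 with single arrays left out (8, 4 and 5 without F- array 1, 2 or 3). In F- against Sham hearts, 6 became 10 on untransformed values, 4 without Sham array 2 and F- array 1, and 5 to 11 with single arrays left out (11 without F- array 2). In F+ against Sham hearts, 6 became 10 on untransformed values and 0 to 8 with single arrays left out (0 without F+ array 2, 2 without F+ array 3 or Sham array 2). In banded against Sham hearts, 7 became 13 on untransformed values and 2 to 10 with single arrays left out (2 without Sham array 1, 3 without F+ array 2).

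Replicate numbers gave no sign of pairing: over 9 same-numbered pairs the correlation of deviations ran from -0.205 to 0.053. F+ array 1 and F- array 2, of unlike number, had 0.264. Deviations from a mean of 3 arrays are tied to each other, so this check cannot exclude pairing or a shared batch. With the replicate number as a block, F+ against F- had 0 features passing and 3 members with an unadjusted p under 0.05, and F+ against Sham had 3 such members. Median centring moved the split of the members in F+ against Sham to 56 higher and 20 lower, and in F- against Sham to 63 and 13. Array signal relative to background cannot be judged from these values.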
